A study of Mus musculus with 24 samples.

Results

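The response of the mouse sciatic nerve to an ERK1/2 inhibitor was set against its response to a CDK4/6 inhibitor. The comparison used 12 of the 24 RNA sequencing libraries of the study, chosen by their treatment label: 6 from nerves exposed to LY3214996 (ERKi) and 6 from nerves exposed to abemaciclib (CDKi), each for 1 week. In all groups the genotype was Nf1 flox/flox PostnCre+, the tissue was sciatic nerve and the tumour stage was plexiform neurofibroma, a nerve sheath tumour that is benign, so the labels tell the groups apart by treatment alone. The other 12 libraries came from 6 vehicle samples and 6 samples given both drugs, and their levels are shown as a reference. Cre was expressed from the promoter of Postn, which encodes the matrix protein periostin, so cells that never used this promoter kept an intact Nf1 gene. The labels name no sex, age or animal for the libraries, and no label says that each came from its own animal, so each p-value reflects the spread among these samples and nothing wider. All 24421 genes of the count table were considered, and 15385 of them had enough counts for a test.

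ERK1 and ERK2 are the last kinases of the RAS, RAF and MEK cascade, which neurofibromin, the product of Nf1, holds in check. Active ERK induces immediate early genes and its own feedback inhibitors, such as dual-specificity phosphatases and Sprouty proteins. CDK4 and CDK6, bound to cyclin D, phosphorylate the retinoblastoma protein and so release the E2F factors that drive DNA replication, which places them downstream of ERK in the control of division. Peripheral nerve also holds fibroblasts, perineurial and endothelial cells, macrophages and fat, and like other tissues it answers to glucocorticoid hormone and carries a circadian clock.

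Total counts ran from 14525128 to 24676846 in ERKi and from 15118837 to 19757307 in CDKi. Several libraries stood apart before any gene was tested. Transcripts of liver, read as the mean log2 CPM (a gene's counts scaled to a common library size) of the 8 tested genes of a list of 20, were at 8.38 in ERKi 3, 7.98 in CDKi 1 and 8.43 in CDKi 3, while the highest of the other 9 libraries was at 1.54. The mean of 18 neuron genes was 1.32 in CDKi 3 and 0.65 in CDKi 5 against 6.46 or more in the other 10. Scn10a, which encodes a sodium channel of sensory neurons whose cell bodies lie in ganglia outside the nerve trunk, was at 1.23 and 0.215 CPM in CDKi 3 and CDKi 5, and at 159 to 634 CPM in the other 10. Myelin genes of Schwann cells were read in each of the 12 libraries, with a list mean of 6.64 to 8.48 in ERKi and 7.90 to 8.70 in CDKi, and ERKi 3 was the lowest. Skeletal muscle genes were highest in CDKi 5, and Xist occurred together with Y-linked transcripts in ERKi 3, CDKi 2 and CDKi 3. These properties were shared unevenly between the groups, so results below are also given without the liver libraries (ERKi 3, CDKi 1 and CDKi 3), without the neuron-poor libraries (CDKi 3 and CDKi 5 here, with vehicle 1 and 5 and combination 3 and 5) and, as a choice made after the data were seen, without both sets or without the 3 libraries with Xist and Y-linked counts. With both sets left out, the CDKi group held CDKi 2, 4 and 6 only.

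**Figure D1:**
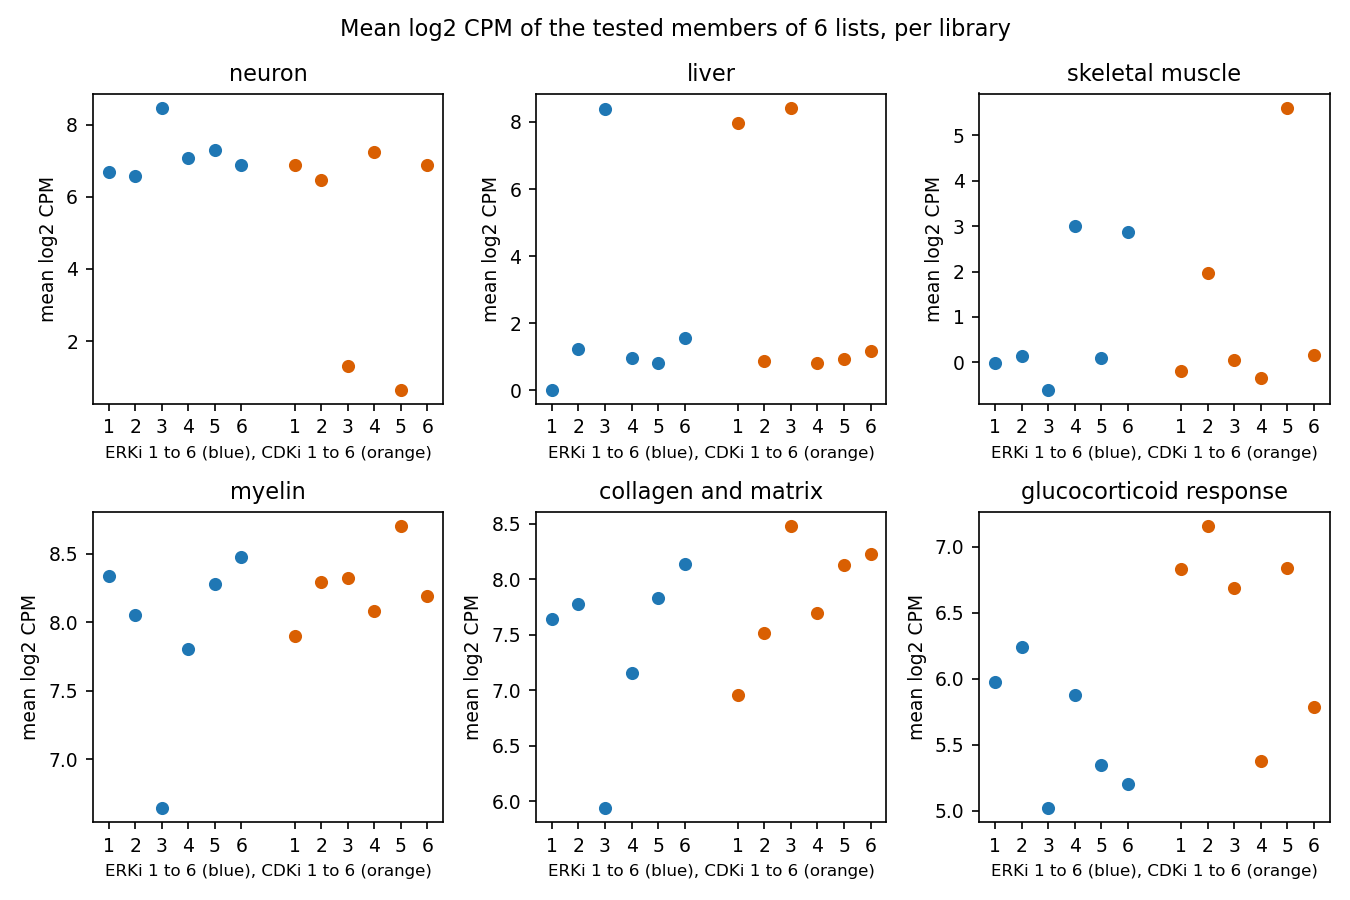
Mean log2 CPM of the tested members of 6 gene lists (y axis) in each ERKi library (blue, 1 to 6) and each CDKi library (orange, 1 to 6). Liver genes stand out in ERKi 3, CDKi 1 and CDKi 3, neuron genes are low in CDKi 3 and CDKi 5, ERKi 3 is lowest in myelin and matrix genes, and the glucocorticoid response list reaches 7.16 in CDKi 2 while ERKi lies between 5.02 and 6.24.

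Targets of the glucocorticoid receptor and clock genes were among the genes with the smallest p-values, and they were lower under ERKi than under CDKi. Fkbp5 was 3.63-fold, Zbtb16 4.45-fold and Ciart 3.48-fold higher in CDKi by the fitted means. Immediate early genes and other outputs of ERK were also mostly lower in ERKi, with medians of -0.42 and -0.19 on the log2 scale. No gene passed the test, so every difference below is given as a value and not as a change. Of 15385 genes, 0 (0%) had an adjusted p under 0.05 in the quasi-likelihood test of edgeR, and the smallest adjusted p was 0.770. An unadjusted p under 0.05 was reached by 698 genes (4.54%), of which 390 were lower in ERKi (2.53%) and 308 higher (2%), a share no larger than the threshold itself. DESeq2 also called 0 genes, with 876 at an unadjusted p under 0.05 and a smallest adjusted p of 0.0854, and limma-voom called 0, with 664 and 0.615. The number at an unadjusted p under 0.05 depended on single libraries. It was 1279 without CDKi 4, 409 without CDKi 3 and 347 without CDKi 5. With sets of libraries left out it was 221 without the liver libraries, 253 without the neuron-poor libraries, 185 without both sets and 413 without the libraries with Xist and Y-linked counts. Keeping genes above 1 CPM in 6 libraries left 684, of which 508 were lower and 176 higher. Over all genes the median log2 fold change (ERKi minus CDKi) was -0.0085, with 51.6% of genes below 0 and 48.4% above. Counts of list members below are to be read beside these shares. Members of a list were read in the same libraries, so their counts are not separate tests. In whole tissue, fewer cells of a type and less RNA per cell cannot be told apart.

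Fkbp5, which encodes a co-chaperone that is induced by the glucocorticoid receptor and restrains it, lay at 24.8 to 62.9 CPM in ERKi (median 42.6) and at 38.0 to 241 CPM in CDKi (median 163). CDKi 1, 2, 3 and 5 were all above every ERKi library, while CDKi 4 (38.0 CPM) and CDKi 6 (61.2 CPM) lay within the ERKi range. The log2 fold change was -1.86 ± 0.44 SE (adjusted p = 0.770; 0.0854 by DESeq2). Vehicle spanned 24.4 to 110.4 CPM and the combination 101 to 218 CPM, so vehicle overlapped with both single drugs, and each combination library exceeded each ERKi library. Zbtb16, a zinc finger repressor also known as PLZF, was at 9.41 to 35.8 CPM in ERKi (median 16.5) and 14.9 to 196 CPM in CDKi (median 98.7). CDKi 4 was again the lowest of its group and the only one within the ERKi range, and CDKi 6 (37.7 CPM) lay just above it. The difference was -2.16 ± 0.55 SE (adjusted p = 0.770; 0.0882 by DESeq2). Hif3a, a subunit of the hypoxia-inducible factors, had the largest difference among the 10 genes named for the smallest p in this direction. It was at 4.32 to 25.2 CPM in ERKi (median 12.6) and 15.7 to 128 CPM in CDKi (median 77.02), with a log2 fold change of -2.39 ± 0.60 SE (adjusted p = 0.770; 0.0854 by DESeq2). CDKi 1, 2, 3 and 5 again lay above all ERKi libraries. In the GRCm38.p6 annotation of RefSeq these are protein-coding genes at chr17:28398753-28486149 (Fkbp5), chr9:48651797-48836225 (Zbtb16) and chr7:17030993-17062427 (Hif3a).

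Both Fkbp5 and Zbtb16 belong to a list of 18 glucocorticoid response genes, all of which had enough counts. This list, like the others, was chosen with earlier results of these data known. Its counts and median are therefore descriptions and no separate evidence for the single genes. Of the 18 genes 16 were lower in ERKi and 2 higher, beside 51.6% of all genes lower. An unadjusted p under 0.05 was reached by 11, all lower in ERKi, beside 2.53% of all genes lower at that level. The median log2 fold change was -0.94, beside -0.0085 over all genes. The other 9, Per1 among them, include classical targets of the receptor, and apart from Per1 they were named after their values were seen. Map3k6, a stress kinase gene, was at 8.57 to 26.6 CPM in ERKi (median 15.3) and 13.8 to 113 CPM in CDKi (median 60.2), a log2 fold change of -1.77 ± 0.54 SE. Klf15 and Klf9 encode Krüppel-like transcription factors; Klf15 was at 16.96 to 43.3 CPM in ERKi and 28.7 to 98.6 CPM in CDKi (-1.19 ± 0.36 SE), and Klf9 at 110.4 to 218 and 158 to 529.9 CPM (-1.04 ± 0.33 SE). In each of these 3 genes CDKi 4 and 6 were the low libraries of their group and overlapped with ERKi. Tsc22d3, which encodes the anti-inflammatory protein GILZ, was at 106 to 346 CPM in ERKi and 158 to 673 in CDKi (-1.08 ± 0.45 SE). Sgk1, a kinase of sodium transport, differed by -1.02 ± 0.40 SE, the metallothionein Mt2 by -1.15 ± 0.54 SE, the transcription factor Cebpd by -0.71 ± 0.33 SE and Errfi1, an inhibitor of the EGF receptor, by -0.49 ± 0.23 SE. The adjusted p of each was 0.770. Nr3c1, the receptor's own gene, was at 0.04 and Angptl4, a lipase inhibitor, at 0.25, and these were the members higher in ERKi.

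Against vehicle, the median of the glucocorticoid list was -0.49 in ERKi and 0.42 in CDKi, 2 comparisons that share the vehicle libraries. In ERKi 17 of 18 members were below vehicle, beside 50% of all genes, and in CDKi 15 of 18 were above it, beside 48.2%. Fkbp5 stood at -0.55 in ERKi and 1.31 in CDKi, Zbtb16 at -1.17 and 0.99, and Sgk1 at -1.03 and -0.011. The mean log2 CPM of the list was 5.02 to 6.24 in ERKi and 5.38 to 7.16 in CDKi. CDKi 4 and CDKi 6 (5.78) lay within the ERKi range and the other 4 CDKi libraries above it. The median was -0.66 without the liver libraries, with 3 members at an unadjusted p under 0.05, -0.80 without the neuron-poor libraries (6 members) and -0.45 without both (3 members). Without the libraries with Xist and Y-linked counts it was -0.59 (4 members), with the neuron list mean as a covariate -0.77 (7 members) and with the adipocyte list mean as one -0.78 (7 members). Leaving out single libraries gave medians between -1.13 and -0.75 and 7 to 13 such members, the fewest without ERKi 6. Single genes moved by different amounts: Fkbp5 was at -1.47 and Zbtb16 at -1.86 without both sets, and Klf15 at -0.62. The CDKi libraries left in that fit were CDKi 2, 4 and 6. Fkbp5 was at 240.7, 38.0 and 61.2 CPM in them and Zbtb16 at 196, 14.9 and 37.7 CPM. CDKi 2 alone lay well above the ERKi range, and it is among the libraries with Xist and Y-linked counts.

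**Figure D2:**
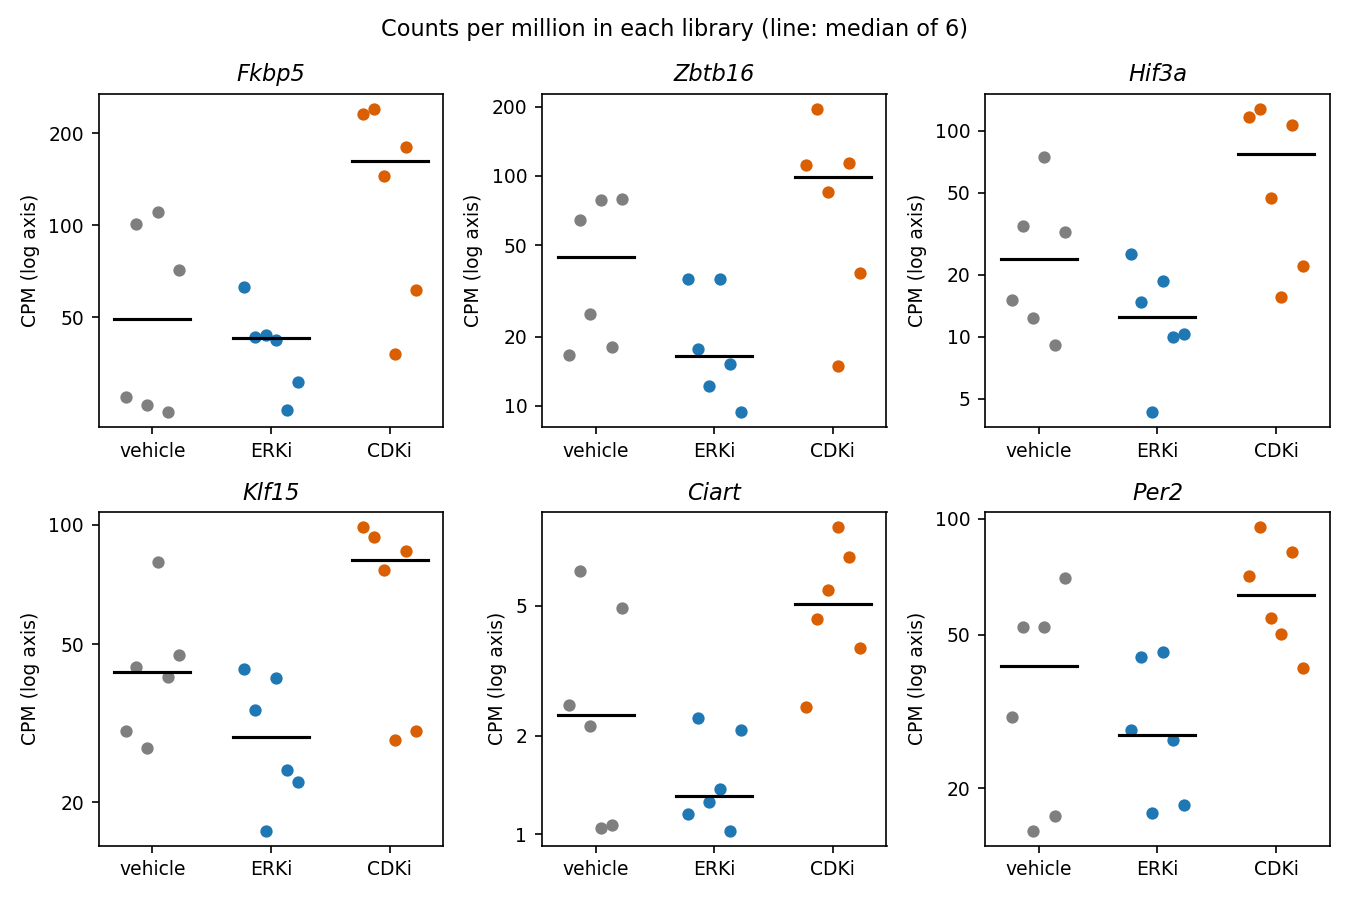
CPM (log axis) of 6 genes in each vehicle, ERKi and CDKi library, 6 libraries a group, with a line at the group's median. The ERKi medians are the lowest of the 3 groups in each gene, Ciart shows no overlap between ERKi and CDKi, and for Fkbp5, Zbtb16, Hif3a and Klf15 the 2 lowest CDKi libraries are CDKi 4 and CDKi 6.

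The sample titles are numbers in 2 ranges, below 5000 (ERKi 1 to 4 and CDKi 1 to 3) and 5000 and above (ERKi 5 and 6 and CDKi 4 to 6). What the ranges stand for is not given in the labels. Within the lower range Fkbp5 was at 42.2 to 62.9 CPM in ERKi and 145 to 241 in CDKi. Within the upper range it was at 24.8 and 30.6 CPM in ERKi and at 38.0, 61.2 and 180.2 CPM in CDKi, so the groups did not overlap in either range. The glucocorticoid list mean behaved alike, at 5.02 to 6.24 against 6.69 to 7.16 in the lower range, and at 5.21 and 5.34 against 5.38 to 6.84 in the upper. Over all genes, 84 (0.546%) had each ERKi library below each CDKi library of the same range in both ranges, and 50 (0.325%) had the opposite order. The 84 included 7 of the 18 glucocorticoid genes, namely Fkbp5, Tsc22d3, Per1, Klf9, Klf15, Cebpd and Map3k6, and 5 of the 18 clock genes, namely Per1, Per2, Tef, Ciart and Bhlhe41. These counts were made after the values were seen, and with 2 or 3 libraries a group in the upper range they are descriptions. With a term for the range in the model, the list median was -0.91 and 0 genes were called.

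Clock genes followed the same order of groups. The circadian clock is a loop in which BMAL1 (Arntl) with CLOCK or NPAS2 switches on Per, Cry, Nr1d1 and Dbp, whose products then act back on the loop, so that the activators and their targets peak at different times of day. The labels give no hour of collection. Of 18 clock genes, all tested, 13 were lower in ERKi and 5 higher, with a median of -0.41, and 7 had an unadjusted p under 0.05, all lower. Among all genes 51.6% were lower, and 2.53% were lower at that level. Per1 is on both this list and the glucocorticoid list, since the receptor also induces it. Ciart, a repressor of the BMAL1 complex, was at 1.03 to 2.27 CPM in ERKi (median 1.31) and 2.45 to 8.71 CPM in CDKi (median 5.08). Every ERKi library was below every CDKi library, although the lowest CDKi value (2.45 CPM) was close to the highest ERKi value. Its log2 fold change was -1.80 ± 0.41 SE, with the smallest unadjusted p of the genes named by rule (0.000248, adjusted p = 0.770; 0.0882 by DESeq2). Per2, a core repressor, was at 17.3 to 45.0 CPM in ERKi (median 27.4) and 41.0 to 94.97 CPM in CDKi (median 63.2), a difference of -1.14 ± 0.34 SE. Its groups overlapped between 41.0 CPM (CDKi 6) and 45.0 CPM (ERKi 4). Per1 was at 49.5 to 186 CPM in ERKi and 103 to 337 in CDKi (-1.01 ± 0.37 SE), and Dbp, an output transcription factor, at 25.1 to 45.5 and 28.8 to 88.5 (-0.71 ± 0.34 SE).

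Among the clock genes picked after their values were seen, Bhlhe41, another repressor of the loop, was at 55.7 to 67.2 CPM in ERKi (median 60.1) and 69.2 to 94.9 CPM in CDKi (median 83.0) with no overlap (-0.44 ± 0.15 SE). Tef differed by -0.44 ± 0.19 SE and Nr1d1, which encodes the repressor REV-ERB alpha, by -0.47 ± 0.23 SE. The positive arm pointed the other way: Arntl was at 12.9 to 38.1 CPM in ERKi (median 22.5) and 4.22 to 17.9 CPM in CDKi (median 16.2) (0.79 ± 0.47 SE), and Npas2 differed by 0.58 ± 0.38 SE. Neither had an unadjusted p under 0.05, and their groups overlapped. Nfil3, a repressor of the Dbp family's targets, was at 0.42, Clock at 0.14 and Cry1 at 0.07, which completes the 5 members above 0. Against vehicle Per2 stood at -0.42 in ERKi and 0.72 in CDKi, Ciart at -0.998 and 0.80, and Arntl at -0.064 and -0.86. In the combination, Per2 was at 40.2 to 84.2 CPM and Arntl at 4.03 to 18.6 CPM, ranges close to those of CDKi. The clock median was -0.35 without the liver libraries (3 members at an unadjusted p under 0.05), -0.32 without the neuron-poor ones (6) and -0.28 without both (3). It was -0.30 without the libraries with Xist and Y-linked counts (3). The number of such members was 4 without ERKi 3 and 11 without CDKi 1. Ciart itself was at -1.84 without both sets and at -1.80 without the Xist and Y-linked libraries.

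For each of 4 of these genes a promoter window is shown because it carries the canonical E-box, the letters CACGTG. The E-box reads the same on both strands and is the sequence that the BMAL1 complex binds. Each is the 250 bases before a RefSeq transcript start, 5′ to 3′ on the gene's strand in GRCm38.p6, with the E-box in capitals: Ciart at chr3:95882229-95882478 (minus strand), Per1 at chr11:69098699-69098948 (plus), Fkbp5 at chr17:28486150-28486399 (minus) and Klf15 at chr6:90462326-90462575 (plus).
Ciart: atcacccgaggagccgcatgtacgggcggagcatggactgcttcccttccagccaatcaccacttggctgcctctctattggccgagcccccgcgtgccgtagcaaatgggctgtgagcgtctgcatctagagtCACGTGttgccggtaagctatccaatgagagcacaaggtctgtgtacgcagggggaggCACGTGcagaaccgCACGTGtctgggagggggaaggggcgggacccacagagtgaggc
Per1: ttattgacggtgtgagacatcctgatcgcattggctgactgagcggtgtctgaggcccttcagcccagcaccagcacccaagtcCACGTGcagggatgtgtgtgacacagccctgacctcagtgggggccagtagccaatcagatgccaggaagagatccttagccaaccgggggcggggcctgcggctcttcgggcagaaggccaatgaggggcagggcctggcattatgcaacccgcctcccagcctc
Fkbp5: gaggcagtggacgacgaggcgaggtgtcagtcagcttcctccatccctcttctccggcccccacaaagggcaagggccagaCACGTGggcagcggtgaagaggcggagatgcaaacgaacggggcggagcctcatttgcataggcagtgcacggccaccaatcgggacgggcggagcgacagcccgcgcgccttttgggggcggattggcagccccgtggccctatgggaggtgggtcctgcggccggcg
Klf15: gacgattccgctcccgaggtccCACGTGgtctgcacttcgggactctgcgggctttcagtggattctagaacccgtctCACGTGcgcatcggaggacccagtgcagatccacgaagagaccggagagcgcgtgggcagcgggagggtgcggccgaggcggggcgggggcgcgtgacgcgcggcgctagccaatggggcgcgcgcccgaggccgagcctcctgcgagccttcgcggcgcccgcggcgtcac

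The Ciart window holds 3 E-boxes, which begin 116, 58 and 44 bases before its transcript start. That of Klf15 holds 2, at 228 and 172 bases, and those of Per1 and Fkbp5 hold 1 each, at 166 and 169 bases. Per1 had 2 windows, and the 1 with an E-box is printed. The Per1 and Klf15 windows lie inside the gene bounds, which begin at chr11:69095108 and chr6:90461043. The Ciart window overlaps its gene bounds, which end at chr3:95882257. These windows precede a start inside the gene bounds and not the outermost start. Of the 35 genes on the clock and glucocorticoid lists together, 28 had a promoter window in the table. A gene counted if any of its windows held the motif, and genes differed in their number of windows, with 6 for Sgk1. The list genes were tested genes, while the share over all genes was not limited to these, so the shares are not on equal terms. An E-box was found in 5 of 15 clock genes (33.3%) and in 5 of 14 glucocorticoid genes (35.7%), with Per1 in both, beside 1854 of 27025 genes in all (6.86%). The core of the palindrome bound by the glucocorticoid receptor, written ACANNNTGT and likewise the same on both strands, was found in 4 of 14 glucocorticoid genes (28.6%), in 0 of 15 clock genes and in 6.76% of all genes. The D-box TTATGTAA, searched on both strands and bound by Dbp, Tef and Nfil3, was found in 1 of 15 clock genes and in 0.977% of all genes. The letters of neither of the others can overlap an E-box, while the palindrome and the D-box can overlap. Matches describe these windows and are not binding sites.

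Targets of ERK were compared next, since LY3214996 blocks the kinase above them. Of 20 ERK pathway output genes 19 were tested. Of these 17 were lower in ERKi and 2 higher, with a median of -0.19 and 4 at an unadjusted p under 0.05. The shares over all genes were 51.6% lower and 2.53% lower at an unadjusted p under 0.05. Dusp6, a phosphatase that ERK induces and that inactivates ERK, was at 107 to 235 CPM in ERKi (median 160.2) and 141 to 277 CPM in CDKi (median 213). The ranges overlapped over most of their length, and 5 of 6 ERKi libraries were below the CDKi mean. The log2 fold change was -0.39 ± 0.19 SE (adjusted p = 0.770). Without the liver libraries it was -0.11. Spry4, a feedback inhibitor of receptor tyrosine kinases, was at 37.4 to 81.0 CPM in ERKi (median 44.6) and 29.5 to 77.1 CPM in CDKi (median 56.1), a difference of -0.098 ± 0.32 SE (adjusted p = 0.931). The ETS factors Etv4 and Etv5 were at -0.33 ± 0.24 SE and 0.013 ± 0.22 SE (adjusted p = 0.770 and 0.988). Spry4 and Etv5 changed sign under several alternatives, Spry4 with the neuron covariate (0.032) and Etv5 without the liver libraries (-0.10), so neither gave a direction. The combination libraries were at 6.76 to 35.5 CPM for Spry4 and 3.41 to 8.99 CPM for Etv4, and the ERKi and CDKi ranges lay mostly above these.

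The other members of that list with an unadjusted p under 0.05 were Maff, Ier3 and Myc. Maff, a small MAF transcription factor, was at 3.99 to 6.64 CPM in ERKi (median 5.44) and 5.79 to 12.3 CPM in CDKi (median 8.03) (-0.65 ± 0.28 SE), with overlap between 5.79 and 6.64 CPM. Ier3 differed by -0.46 ± 0.21 SE and Myc, named after its value was seen, by -0.38 ± 0.18 SE. The number of members at that level was 0 without ERKi 5, and 2 without ERKi 4, CDKi 1 or CDKi 3, and the median was -0.29 without CDKi 2. That number was 1 without the liver libraries, 1 without the neuron-poor libraries and 0 without both sets. It was 2 without the libraries with Xist and Y-linked counts, and 0 with the neuron or the adipocyte list mean as a covariate. Against vehicle the list's median was -0.24 in ERKi and 0.0028 in CDKi. Over the 27 alternatives the median stayed below 0, between -0.29 and -0.13.

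Immediate early genes, which respond to growth factors and to stress within minutes, were lower in ERKi in 19 of 20 members, with a median of -0.42 and 5 at an unadjusted p under 0.05. Over all genes 51.6% were lower, and 2.53% were lower at an unadjusted p under 0.05. Cyr61, a matricellular protein gene that is also a YAP target, was at 6.01 to 31.6 CPM in ERKi (median 24.8) and 29.5 to 61.8 CPM in CDKi (median 45.5). CDKi 6 lay below ERKi 2 and ERKi 6, and the other 5 CDKi libraries were above all ERKi libraries. The log2 fold change was -1.01 ± 0.28 SE (adjusted p = 0.770) and it was -0.63 without the liver and the neuron-poor libraries. Junb, an AP-1 subunit, was at 20.1 to 46.0 CPM in ERKi (median 26.7) and 34.2 to 68.9 CPM in CDKi (median 44.3) (-0.69 ± 0.22 SE), and Btg2, an antiproliferative gene that p53 also induces, at 15.6 to 25.8 and 23.6 to 46.1 CPM (-0.62 ± 0.23 SE). Egr1, the ERK-responsive zinc finger factor, spread widely, at 39.3 to 206 CPM in ERKi and 108 to 281 CPM in CDKi, and differed by -0.57 ± 0.44 SE (adjusted p = 0.770). In the combination Egr1 was at 7.51 to 55.1 CPM. The list median was -0.25 without ERKi 3, -0.21 without the liver libraries and -0.20 without the libraries with Xist and Y-linked counts. The number of members at an unadjusted p under 0.05 was 1 without the liver libraries, 1 without the libraries with Xist and Y-linked counts, 2 without the liver and the neuron-poor libraries and 8 without ERKi 2. Without CDKi 3 the median was -0.28.

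Of 22 genes of the cascade itself, from receptors to the kinases that ERK activates, 13 were higher in ERKi and 9 lower, with a median of 0.12, and 5 had an unadjusted p under 0.05, all higher. Among all genes 48.4% were higher, and 2% were higher at an unadjusted p under 0.05. Sos1, which loads RAS with GTP, was at 164 to 301 CPM in ERKi (median 176) and 109 to 170.1 CPM in CDKi (median 141), a difference of 0.47 ± 0.17 SE. ERKi 3 was far above the rest. ERKi 1, 2 and 5 (173, 178 and 189 CPM) lay above every CDKi library by less, and ERKi 4 and 6 lay within the CDKi range. Rps6ka2, a kinase activated by ERK, was at 28.6 to 74.6 CPM in ERKi (median 37.7) and 15.7 to 32.4 CPM in CDKi (median 27.4) (0.71 ± 0.29 SE), again with ERKi 3 the highest. Without ERKi 3 these differences were 0.30 and 0.45, and 1 member of the list had an unadjusted p under 0.05, as without CDKi 3 or CDKi 5. No member did so without the liver libraries, without the neuron-poor libraries or without both sets. The same held without the libraries with Xist and Y-linked counts. By DESeq2 and by limma-voom the number was 3, and with the neuron covariate it was 1. The list's median was 0.07 without ERKi 3 and 0.06 without ERKi 4. Nf1 was at 354 to 447 CPM in ERKi (median 387) and 305 to 375 CPM in CDKi (median 337), a difference of 0.23 ± 0.093 SE (adjusted p = 0.770), with overlap between 354 and 375 CPM. Both groups carry the same floxed alleles, so these levels do not check the deletion. Postn, whose promoter drives Cre, was at 234 to 853 and 166 to 1134 CPM (-0.23 ± 0.41 SE, adjusted p = 0.870).

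Cell-cycle genes were compared because abemaciclib acts on the step into DNA replication. Mki67, the proliferation marker, was at 8.71 to 19.7 CPM in ERKi (median 9.87) and 2.62 to 19.98 CPM in CDKi (median 9.06), with broad overlap and a log2 fold change of 0.32 ± 0.51 SE (adjusted p = 0.850). Top2a, a topoisomerase of dividing cells, was at 3.003 to 8.17 and 1.23 to 12.1 CPM (0.020 ± 0.60 SE), and Rrm2, a ribonucleotide reductase subunit, at 0.783 to 1.88 and 0.483 to 2.52 CPM (-0.23 ± 0.35 SE). The standard errors were wider than the differences for all 3 genes. Of 34 tested E2F and replication genes 12 were higher and 22 lower in ERKi (median -0.080), and of 31 mitotic genes 19 were higher and 12 lower (median 0.077). The E2F median was -0.17 without ERKi 2, -0.12 without ERKi 5, -0.13 without CDKi 1 and -0.041 without CDKi 3, and it turned to 0.015 without the libraries with Xist and Y-linked counts. The mitotic median lay between -0.05 without CDKi 1 and 0.30 without CDKi 3. Against vehicle the mitotic median was -0.27 in ERKi and -0.28 in CDKi. Mcm5, a helicase subunit, differed by -0.074 ± 0.20 SE, and Msh6, a mismatch repair gene and the only one of the E2F list at an unadjusted p under 0.05, by 0.21 ± 0.084 SE.

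On the CDK4/6 axis 7 of 21 genes were higher in ERKi and 14 lower (median -0.12), and the median had the other sign in 6 of 27 alternatives and was -0.02 without CDKi 3. E2f1, the factor held back by the retinoblastoma protein, was at 4.18 to 11.3 CPM in ERKi (median 6.45) and 1.61 to 5.90 CPM in CDKi (median 4.15). The groups overlapped between 4.18 and 5.90 CPM, and the difference was 0.78 ± 0.33 SE (adjusted p by edgeR = 0.770). It was 0.56 without ERKi 3 and 0.19 without the liver and the neuron-poor libraries. Ccnd1, the gene of cyclin D1, was at 211 to 344 CPM in ERKi (median 292) and 255 to 505 CPM in CDKi (median 361) (-0.34 ± 0.38 SE, adjusted p = 0.796), with overlap between 255 and 344 CPM. The CDK inhibitors Cdkn1a, Cdkn2c and Cdkn2d differed by -0.13 ± 0.23 SE, -0.23 ± 0.26 SE and 0.45 ± 0.28 SE. Of 17 tested p53 targets 6 were higher in ERKi and 11 lower, and 3 had an unadjusted p under 0.05, all lower. Among all genes 51.6% were lower, and 2.53% were lower at that level. The list's median was -0.11, and it was -0.19 without CDKi 4, -0.17 without ERKi 1 and -0.040 without CDKi 3. Of the 3, Phlda3, an inhibitor of AKT, was at 42.6 to 78.0 CPM in ERKi (median 68.2) and 62.9 to 139 CPM in CDKi (median 88.0) (-0.53 ± 0.17 SE).

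**Figure D3:**
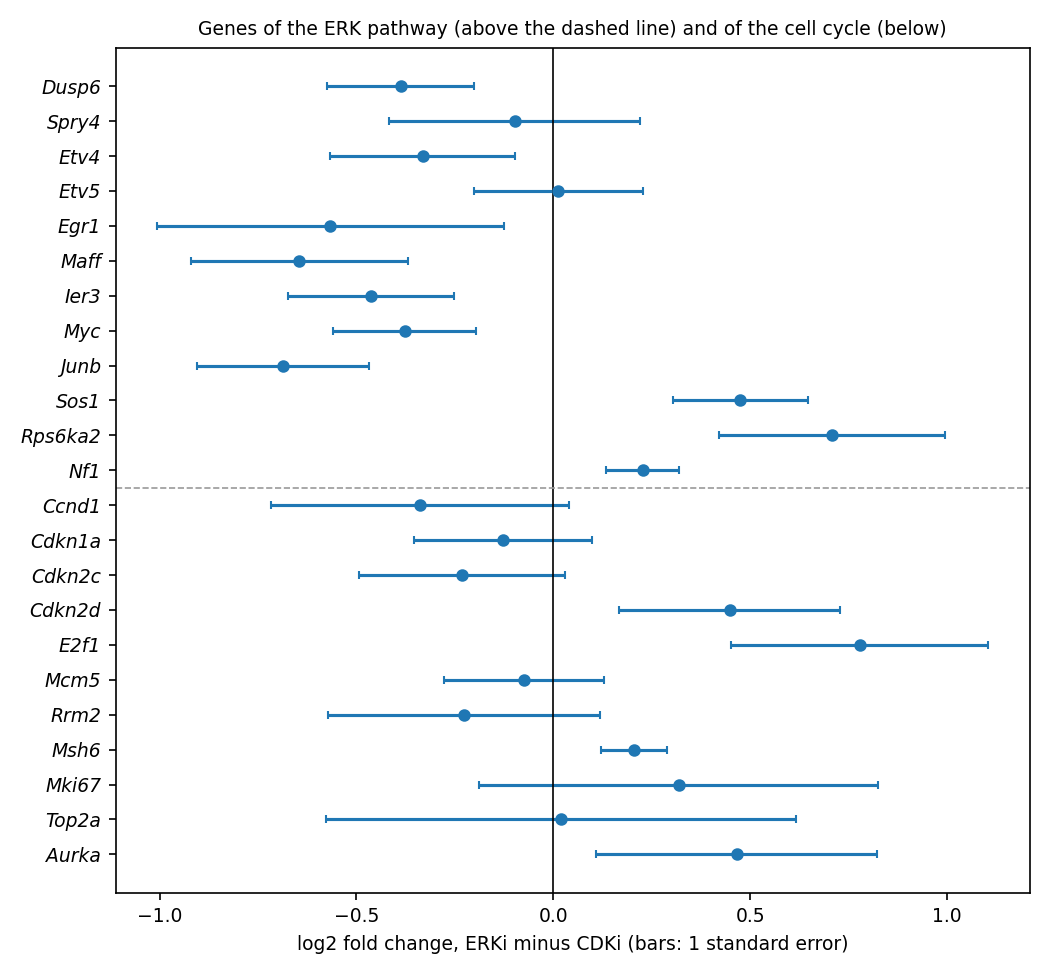
Log2 fold change (ERKi minus CDKi) of 12 genes of the ERK pathway and 11 of the cell cycle, with bars of 1 standard error from the edgeR fit over all 24 libraries. Values reach from -0.69 (Junb) to 0.78 (E2f1), and Etv5 and Top2a lie at 0.01 and 0.02.

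The genes with the smallest p were named by rule, 10 in each direction, and those lower in ERKi include Ciart, Fkbp5, Zbtb16 and Hif3a above. Gli2, a transcription factor of the Hedgehog pathway at chr1:118834061-119054405 in GRCm38.p6, was at 7.13 to 21.7 CPM in ERKi (median 17.7) and 14.3 to 53.9 CPM in CDKi (median 38.9). CDKi 4 lay among the ERKi libraries and the other 5 CDKi libraries above them all, and the difference was -1.17 ± 0.29 SE (adjusted p = 0.770; 0.168 by DESeq2). Sphk1, the kinase that makes sphingosine 1-phosphate, was at 0.854 to 2.61 and 2.44 to 7.01 CPM (-1.30 ± 0.33 SE), with an overlap between the top ERKi and the bottom CDKi library alone. Mical2, an enzyme that oxidises actin, differed by -0.90 ± 0.23 SE, Amica1, a leukocyte adhesion molecule, by -1.68 ± 0.44 SE and Rdh10, a retinol dehydrogenase, by -0.57 ± 0.15 SE. Amica1 was near 1.51 CPM in ERKi and 3.20 CPM in CDKi by the medians, and CDKi 1 alone reached 12.7 CPM. These 9 genes were lower in ERKi in each of the 27 alternatives. They were picked for a small p in this direction in the same libraries, so the constant sign is no separate evidence.

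The 10 genes named by rule as higher in ERKi differed by less than most of those named as lower. The largest of the 10 named were Gfod2, at 4.60 to 8.26 CPM in ERKi (median 6.01) and 2.52 to 5.47 CPM in CDKi (median 3.97) (0.65 ± 0.19 SE), and Slc22a23, a member of a transporter family, at 64.0 to 128 and 61.6 to 85.2 CPM (0.59 ± 0.17 SE). Fancb, a subunit of the Fanconi anaemia core complex, was at 3.87 to 4.33 CPM in ERKi (median 3.93) and 2.28 to 3.41 CPM in CDKi (median 2.75), with no overlap (0.52 ± 0.15 SE, adjusted p = 0.770). Siah2, a ubiquitin ligase, was at 11.8 to 13.8 and 8.01 to 12.3 CPM (0.44 ± 0.13 SE), where CDKi 3 reached into the ERKi range. Spire2, an actin nucleator, differed by 0.42 ± 0.13 SE, and Zfp846, Glcci1, Lrrfip2, Fbxo45 and Cep170 by 0.30, 0.22, 0.24, 0.29 and 0.29. Glcci1 was at 80.2 to 85.3 CPM in vehicle, 79.7 to 100.3 in ERKi and 72.1 to 81.9 in CDKi. All 10 were higher in ERKi in each of the 27 alternatives, which reuse the libraries that the genes were picked from.

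Complete separation of the groups was rare. Every ERKi library was below every CDKi library in 13 genes (0.0845%) and above in 12 (0.078%). Picked from these after their values were seen, Nfatc2, a calcium-regulated transcription factor, was at 41.7 to 62.8 CPM in ERKi (median 48.1) and 69.6 to 82.8 CPM in CDKi (median 75.9) (-0.60 ± 0.20 SE). Pappa, a protease that frees insulin-like growth factors from their binding proteins, was at 33.3 to 68.0 CPM in ERKi (median 45.5) and 69.7 to 105 CPM in CDKi (median 88.5) (-0.86 ± 0.30 SE). On the other side Camk2d, a calmodulin-dependent kinase, was at 269.6 to 287 CPM in ERKi (median 283) and 216 to 266 CPM in CDKi (median 240.4) (0.22 ± 0.070 SE). The adjusted p of each was 0.770, and without the liver and the neuron-poor libraries the differences were -0.51, -0.68 and 0.19.

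Matrix and myelin genes were lower in ERKi than in CDKi by their medians, and ERKi 3 was the lowest library in both lists. Of 31 tested matrix genes all 31 were lower in ERKi (median -0.33), with 0 at an unadjusted p under 0.05, and of 22 myelin genes 21 were lower (median -0.21), also with 0. Col1a1, the main fibrillar collagen, was at 258 to 2682 CPM in ERKi (median 1573) and 338 to 4627 CPM in CDKi (median 1532), a difference of -0.45 ± 0.49 SE (adjusted p = 0.791), and the groups overlapped over most of the range. Egr2, the master regulator of myelination, differed by -0.55 ± 0.28 SE, at 27.1 to 93.5 CPM in ERKi and 80.1 to 156 CPM in CDKi. Without ERKi 3 the medians were -0.17 and -0.078, with the neuron covariate -0.088 and -0.047, and by limma-voom, which weights libraries by quality, -0.056 and -0.019. Without ERKi 6 or CDKi 1 the matrix median was -0.52 and -0.51, and without CDKi 3 it was -0.22. The myelin median was -0.34 without ERKi 6, -0.33 without ERKi 1 or CDKi 1 and -0.13 without CDKi 5. Without both the liver and the neuron-poor libraries the matrix median was -0.064 and the myelin median 0.016, which turns the direction of the myelin list. Among 15 genes of nerve fibroblasts 14 were lower (median -0.37; -0.56 without ERKi 5 and -0.21 without the liver and the neuron-poor libraries). The apolipoprotein gene Apod was at 2184 to 4473 CPM in ERKi (median 3447) and 4400 to 6770 CPM in CDKi (median 5462) (-0.72 ± 0.23 SE), with an overlap at 4400 to 4473 CPM.

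Of 11 tested YAP/TAZ targets, genes of a pathway that senses stiffness and contact, all 11 were lower in ERKi (median -0.34), and 3 had an unadjusted p under 0.05: Cyr61, F3 and Axl. The shares over all genes were 51.6% lower and 2.53% lower at an unadjusted p under 0.05. F3, the tissue factor gene, was at 27.04 to 101 CPM in ERKi (median 60.2) and 67.7 to 225 CPM in CDKi (median 132) (-1.09 ± 0.47 SE), and Axl, a receptor tyrosine kinase, at 129 to 458 and 393 to 523 CPM (-0.51 ± 0.23 SE). Cyr61 counts in the immediate early list too. Without both the liver and the neuron-poor libraries the median was -0.040, and the number of members at an unadjusted p under 0.05 was 1 without ERKi 3 or CDKi 1 and 5 without CDKi 4. Receptor tyrosine kinases and their ligands were lower in 19 of 25 (median -0.18), but that median was -0.074 without ERKi 3 and -0.30 without CDKi 1. This list includes Pdgfa, a growth factor, at 29.0 to 83.8 and 80.4 to 105 CPM (-0.49 ± 0.21 SE). In the repair Schwann list 7 of 17 were higher and 10 lower (median -0.16; -0.030 without CDKi 1, -0.069 without ERKi 3 and -0.096 without CDKi 3), and the median turned to 0.030 without the liver and the neuron-poor libraries. Ngfr, the low-affinity neurotrophin receptor of dedifferentiated Schwann cells, was at 94.6 to 230.0 CPM in ERKi (median 117) and 46.1 to 98.6 CPM in CDKi (median 86.0) (0.77 ± 0.32 SE), with ERKi 3 at 230.0 CPM well above its group. Its lowest values were in the neuron-poor CDKi 3 and CDKi 5, at 46.1 and 52.8 CPM. Without the liver libraries and with the neuron list mean as a covariate, the Ngfr difference was 0.17.

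Neuron genes were higher in ERKi in 18 of 18 members (median 0.97), with 0 at an unadjusted p under 0.05. CDKi 3 and 5 were the low libraries and ERKi 3 the highest. Without ERKi 3 the median was 0.56, without the neuron-poor libraries 0.41, and without the liver libraries as well 0.012. Heat shock genes, which encode chaperones, were higher in 13 of 14 (median 0.32). Hsph1 was at 63.9 to 144 CPM in ERKi (median 76.0) and 20.8 to 73.1 CPM in CDKi (median 49.7) (0.80 ± 0.31 SE), and Hsp90ab1, a cytosolic HSP90, at 712 to 1343 and 579 to 812 CPM (0.35 ± 0.16 SE). In both, ERKi 3 was the highest library; the list's median was 0.19 without ERKi 3 and 0.014 without the liver and the neuron-poor libraries, with 0 members at an unadjusted p under 0.05 in each, nor any without CDKi 5. With the neuron list mean as a covariate the heat shock median was 0.17.

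Adipocyte genes were lower in ERKi in 14 of 15 (median -0.49). Against vehicle both drugs lay above it, with medians of 1.10 in ERKi and 1.70 in CDKi. Dgat2, which makes triglyceride, was at 5.50 to 17.3 CPM in ERKi (median 13.8) and 16.4 to 21.2 CPM in CDKi (median 17.2) (-0.43 ± 0.25 SE, adjusted p = 0.770), with an overlap at the top of ERKi, beside 2.86 to 11.5 CPM in vehicle. Adipoq, the adiponectin gene, was at 1.39 to 21.7 and 5.39 to 45.2 CPM (-0.56 ± 0.65 SE). The list's median was -0.30 without CDKi 5 and -0.33 without ERKi 1. Macrophage genes were lower in 13 of 18 (median -0.12), among them Mertk, a receptor for the uptake of dead cells, at 34.5 to 129 CPM in ERKi (median 88.0) and 101 to 219 CPM in CDKi (median 149) (-0.79 ± 0.31 SE). Without CDKi 3 the macrophage median turned to 0.14, without the neuron-poor libraries it was 0.15, and over the other single libraries it reached -0.26 without ERKi 3.

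Members of the remaining lists are given by count, with the median as reported and then its value without a named library. Genes lower in ERKi were 10 of 11 perineurial (median -0.37, -0.20 without CDKi 5), 12 of 13 pericyte and smooth muscle (-0.35, -0.19 without CDKi 5) and 11 of 14 endothelial genes (-0.19, -0.057 without CDKi 5, -0.10 without ERKi 3 and -0.31 without CDKi 4). Without both the liver and the neuron-poor libraries these medians were -0.088, 0.13 and 0.11, so the latter pair turned. Of pan Schwann genes 7 of 10 were lower, and the median of -0.12 was -0.22 without ERKi 6 and turned to 0.042 without ERKi 3. For metabolism, 12 of 14 fatty acid (-0.19, -0.12 without ERKi 3) and 14 of 24 cholesterol synthesis genes were lower (-0.0026, -0.096 without CDKi 2 and 0.13 without CDKi 5).

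In the same form, the medians of most of the immune lists below took both signs as single libraries were left out. Of mast cell genes 7 of 9 were lower (median -0.39, -0.60 without ERKi 6 and -0.15 without CDKi 3), and of chemokines 10 of 13 (-0.28, -0.53 without ERKi 6 and 0.10 without CDKi 3). Of interferon genes 9 of 24 were lower (0.068, -0.036 without ERKi 2 and 0.13 without CDKi 3). For antigen presentation the counts were 8 of 12 for MHC class I (-0.078, -0.22 without ERKi 2 and -0.037 without CDKi 3) and 4 of 10 for MHC class II (0.026, -0.22 without ERKi 3 and 0.31 without CDKi 3). Lymphoid lists had 1 of 6 T and NK cell genes lower (0.14, 0.00065 without CDKi 4 and 0.38 without CDKi 3) and 1 of 4 B and plasma cell genes (0.46, -0.042 without ERKi 3 and 0.59 without CDKi 3). Of myeloid genes, 3 of 6 dendritic (0.096, -0.043 without ERKi 3) and 1 of 3 monocyte and neutrophil genes were lower (0.013, -0.14 without CDKi 5 and 0.31 without CDKi 6).

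The integrated stress response had 11 of 18 lower (-0.037, -0.073 without ERKi 6 and 0.0026 without ERKi 3), and satellite glia 4 of 8 (0.0022, -0.066 without CDKi 2 and 0.026 without ERKi 3). Of red blood cell genes 0 of 2 were lower. Slc4a1, the anion exchanger of red blood cells, differed by 2.58 ± 0.72 SE at 0.313 to 1.70 CPM in ERKi and 0 to 0.477 CPM in CDKi. In these libraries 3 counts were 0.120 to 0.205 CPM, so the Slc4a1 values in CDKi lay near the counting floor. For skeletal muscle 14 of 16 were lower, and the median of -2.02 turned to 1.57 without CDKi 5. For liver 8 of 8 were lower, and the median of -0.70 was -7.47 without ERKi 3 and turned to 0.22 without CDKi 3.

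**Figure D4:**
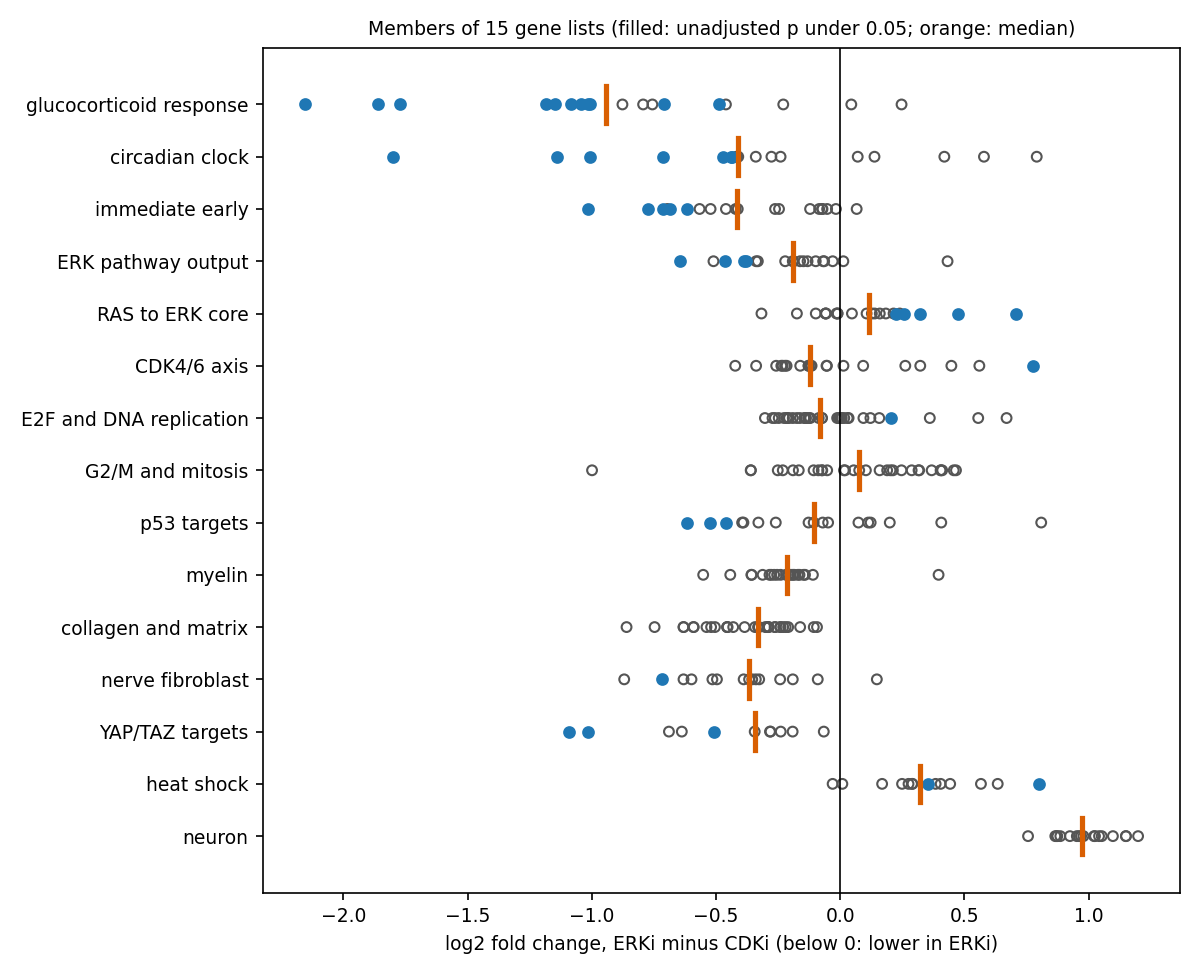
Log2 fold change (ERKi minus CDKi, x axis) of each tested member of 15 gene lists; filled points have an unadjusted p under 0.05 by edgeR and orange bars mark the list's median. The glucocorticoid response list has the lowest median of the 15 (-0.94) and the neuron list the highest (0.97), the latter with no filled point.

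**Figure D5:**
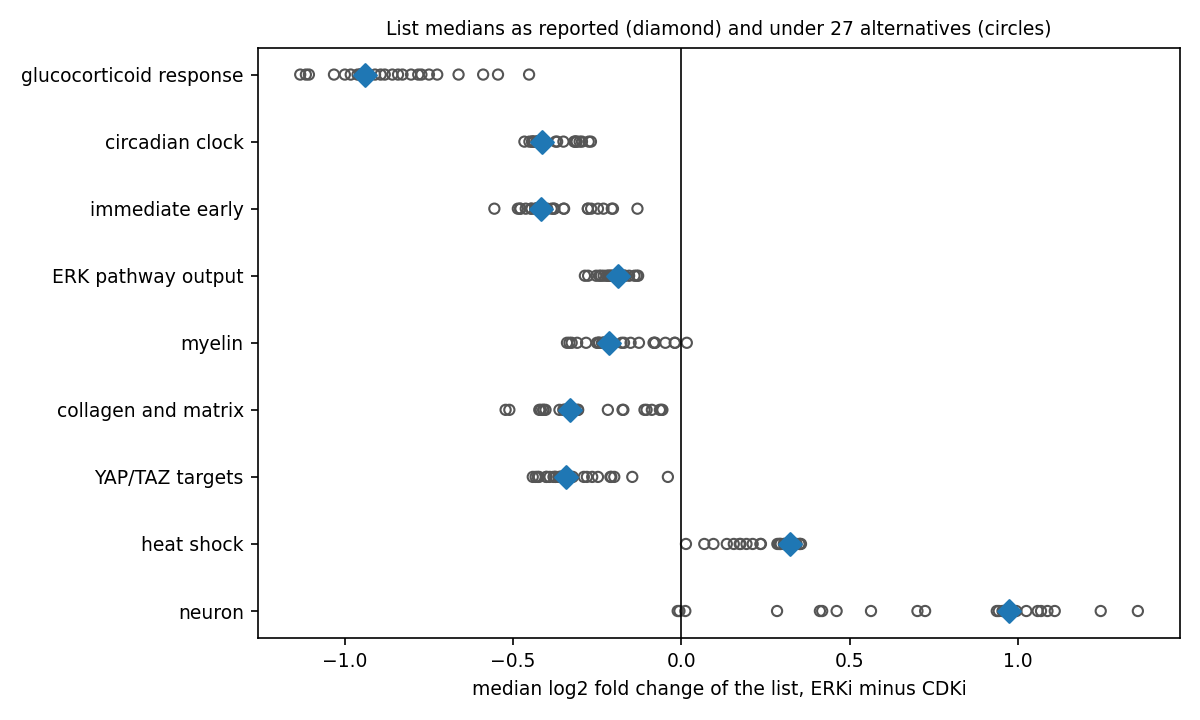
Median log2 fold change of 9 lists in the analysis as reported (diamond) and under each of 27 alternatives (circles). The glucocorticoid medians run from -1.13 to -0.45 and the clock medians from -0.47 to -0.27, while the neuron medians reach from -0.01 to 1.36.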

How the data were processed

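Bulk RNA was sequenced from 24 sciatic nerve samples in 4 groups of 6, and the ERKi and CDKi groups were compared. Per the labels' protocols, libraries were made with a kit that removes ribosomal RNA, while the molecule is labelled polyA RNA. The authors deposited raw counts per gene. Tools named per the submitters' processing notes are STAR, FastQC and DESeq2, with the mm10 build. Not given in the sources used here are the counting program, annotation, strand setting and versions, so overlapping and antisense genes and close paralogs may share reads. The tests ran in edgeR 4.0.16 (R 4.3.3). After filterByExpr, which kept 15385 of 24421 genes, counts were scaled by TMM and fitted by the quasi-likelihood test with robust dispersion over all 4 groups, with Benjamini-Hochberg adjustment over all tested genes and a threshold of 0.05. CPM values use TMM-scaled library sizes, and list means add a prior count of 2. The biological coefficient of variation was 35.9%, with 20 residual degrees of freedom, and total counts of 14525128 to 24676846 in the 12 libraries set the counting precision. The fit was tested on simulated data. The alternatives were DESeq2 1.42.0, limma 3.58.1, other scalings, filters, covariates and left-out libraries; 2 of them, named in the report, were added after the data were seen. The comparison and the 39 gene lists were chosen with earlier results of these data known. Named genes were the 10 with the smallest p in each direction at a mean log2 CPM of at least 1, since fewer than 10 were called, the 2 with the smallest p on each list, and a set list of pathway genes; sex-linked markers, immune receptor and predicted genes and pseudogenes were left out. RefSeq promoters of GRCm38.p6 were searched for motifs. Some named genes are not reported here. The promoters covered 28 of 35 clock and glucocorticoid genes.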

Additional observations from a re-analysis of the deposited data

Results flagged for a closer look

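In groups of 6 libraries, a value that stands far from the other 5 relative to the group's whole range was marked by Dixon's criterion. Of 272 groups tested, 27 held such a value. Chance marks about 1 in 20 groups when values follow a normal distribution. Single genes were read in CPM without logs, and many were named for a small p in these libraries. The chance rate for them may therefore differ. ERKi 3 gave 16 of the 27, and many of these groups share genes or the library. Its list means, as mean log2 CPM, were low for myelin (6.64 against 7.81 to 8.48 in the other 5 ERKi libraries), pan Schwann genes (7.29 against 8.07 to 8.28), YAP/TAZ targets (4.797 against 5.70 to 6.11) and receptor tyrosine kinases with their ligands (4.87 against 5.45 to 5.68). They were high for liver (8.38 against 0.013 to 1.54), monocytes and neutrophils (2.94 against 2.24 to 2.49) and dendritic cells (2.51 against 1.87 to 1.98).

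Single genes of ERKi 3 stood apart as well. In CPM, Uchl1, a ubiquitin hydrolase abundant in neurons, was at 719 against 116 to 211 in the other 5, and the heat-sensing channel gene Trpv1 was at 52.7 against 14.9 to 27.8. Signalling genes above the rest were Sos1 (301 against 164 to 189), Rps6ka2 (74.6 against 28.6 to 39.0), Etv5 (93.1 against 46.3 to 62.0) and Ngfr (230.0 against 94.6 to 128). Hsph1 was at 144 against 63.9 to 79.1 and Fbxo45 at 93.1 against 59.9 to 71.3, while the clock gene Nr1d1 was low, at 62.8 against 126 to 152.

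Elsewhere in the ERKi group, Spry4 was at 81.0 CPM in ERKi 6 against 37.4 to 53.6, Cebpd at 66.3 in ERKi 2 against 33.6 to 45.6 and Camk2d at 269.6 in ERKi 1 against 281 to 287. The total count of ERKi 6 was 24676846 against 14525128 to 17308508.

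In the CDKi group, the ERK pathway output list had a mean log2 CPM of 4.67 in CDKi 2 against 4.97 to 5.10 in the other 5. CDKi 3 was high for the scavenger receptor gene Cd163 (66.1 CPM against 12.9 to 31.7) and Siah2 (12.3 against 8.01 to 9.52). CDKi 5 was high for Egr2 (156 CPM against 80.1 to 100.6) and for Lep, the leptin gene of fat cells (13.7 against 0.308 to 2.00). Amica1 was at 12.7 CPM in CDKi 1 against 1.63 to 5.36, and Slc22a23 at 85.2 CPM in CDKi 4 against 61.6 to 68.8.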

How the results depend on the processing

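None of the 27 alternatives called a gene, and the smallest adjusted p in each lay between 0.0854 (DESeq2) and 1. Of 96 named genes with alternatives, 82 had the same sign in all of them, as did 15 of 38 list medians. Many of these genes were named for a small p in these same libraries, which favours a constant sign. The number of genes at an unadjusted p under 0.05 ran from 347 to 1279 when single libraries were left out and was 185 to 876 under the rest. No paired analysis was possible because the titles carry no replicate number that the groups share. Low counts limited genes near 1 CPM, such as Ciart and Rrm2. The other 14 genes had the other log2 fold change sign in 65 values, and the cause was not tested. By limma-voom they were Postn 0.13, Spry4 0.082, Etv5 -0.11, Mcm5 0.026, Cdkn1a 0.033 and Col1a1 0.17. With upper quartile scaling they were Etv5 -0.0084 and Top2a -0.0064. Without a filter on low counts they were Etv5 -0.016 and Top2a -0.0073. With genes kept above 1 CPM in 6 libraries they were Etv5 -0.017 and Top2a -0.019. With the 12 ERKi and CDKi libraries alone it was Etv5 -0.0041. With a term for the title ranges it was Etv5 -0.025. With the neuron covariate they were Spry4 0.032, Etv5 -0.18, Mcm5 0.0028 and Cdkn1a 0.0030. With the adipocyte covariate they were Etv5 -0.062, Top2a -0.13, Mcm5 0.019 and Adipoq 0.40. Without the liver libraries they were Spry4 0.032, Etv5 -0.10 and Mcm5 0.028. Without the neuron-poor libraries they were Spry4 0.089, Etv5 -0.0062 and Col1a1 0.017. Without the liver libraries and with the neuron covariate they were Cdkn2d -0.055, Ptprz1 -0.031, Cd163 0.042, Uchl1 -0.067, Spry4 0.068, Etv5 -0.24, Mcm5 0.066, Cdkn1a 0.090, Cdkn2c 0.11 and Col1a1 0.0061. Without the liver and the neuron-poor libraries they were Cdkn2d -0.071, Ptprz1 -0.088, Cd163 0.024, Spry4 0.10, Etv5 -0.10, Mcm5 0.0019, Cdkn1a 0.046 and Adipoq 0.14. Without the libraries with Xist and Y-linked counts they were Etv5 -0.24, Mcm5 0.049, Rrm2 0.048, Cdkn1a 0.10 and Col1a1 0.18. Leaving out 1 library at a time gave -0.32 to 0.020 for Spry4, -0.17 to 0.050 for Etv5, -0.22 to 0.50 for Top2a and -0.26 to 0.014 for Cdkn1a.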
